A study of Mus musculus with 4 samples.

Results

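The genes described here are 56 markers of the dividing cell, 25 whose transcripts peak in S phase and 31 whose transcripts peak in G2 and mitosis, out of 32285 genes counted. They were taken by name from 2 lists of cycle genes and not by their values in these tumours. Earlier results of these data were known when they were chosen. All 56 were found in the gene table. The samples were 2 pancreatic tumours from mice that received TAK-981, which blocks the E1 enzyme of the SUMO pathway, and 2 tumours from mice given the vehicle (Cremophor). All 4 mice were of the strain B6/129 F1J and carried tumours grown from KPC46, a mouse organoid line of pancreatic ductal adenocarcinoma, so both groups share 1 tumour line. Each tumour was dissociated and gave 1 library of single-cell RNA (10x Genomics 3' chemistry), so each group has 2 replicates, and the labels used here give no dose and no time of treatment.

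Cells copy their DNA in S phase and divide it in mitosis, and the genes for these tasks are switched on in waves. The S list holds the MCM helicase (Mcm2 to Mcm7), which unwinds DNA at the replication fork, its loading and firing factors (Cdc6, Cdc45, Gins2), the sliding clamp Pcna, enzymes that make deoxynucleotides (Rrm1, Rrm2, Tyms) and repair and chromatin assembly factors (Fen1, Ung, Exo1, Chaf1b). The G2/M list holds the mitotic kinase Cdk1 with its cyclins Ccnb1 and Ccnb2 and its small partners Cks1b and Cks2, the kinases Aurka, Aurkb, Plk1 and Bub1, spindle and midbody motors (Kif11, Kif20b, Kif23), centromere proteins (Cenpa, Cenpe, Cenpf), Top2a, which untangles sister chromatids, and Cdc20 and Ube2c, which direct the anaphase-promoting complex. In textbook models, S genes are driven by E2F factors at their promoters, and many G2/M genes are held down in quiescent cells through a cell cycle homology region (CHR) that often lies close to CCAAT boxes.

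Promoter letters separated the 2 lists. Windows from 250 bases before to 50 bases after the RefSeq start (build GRCm38.p6) were available for 49 of the 56 genes, 21 of the S list and 28 of the G2/M list. They were searched on both strands for the E2F words TTTCCCGC, TTTCGCGC, TTTGCCGC and TTTGGCGC, the CHR words TTTGAA and TTCGAA, and the word CCAAT; hits of different motifs shared letters once in all 49 genes. An E2F word was found in 9 of 21 S genes (42.9%) and 1 of 28 G2/M genes (3.57%), against 704 of 27025 promoters in all (2.61%). A CHR word was found in 21 of 28 G2/M genes (75%) and 5 of 21 S genes (23.8%), against 21.7% of all promoters. CCAAT was common in both lists, at 76.2% of S genes and 71.4% of G2/M genes against 41.1% of all promoters, whereas a CHR word together with CCAAT was found in 60.7% of G2/M genes, 19.0% of S genes and 8.61% of all promoters.

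Part of 6 of these windows, from 170 bases before to 30 bases after the start, is shown because these genes carry much of what follows: 2 helicase genes with E2F words and 4 mitotic genes with CHR words. Each is written 5′ to 3′ on the gene's own strand, with every matched word in capitals. Mcm3 lies at chr1:20820283-20820482 (minus strand), Mcm6 at chr1:128359676-128359875 (minus), Top2a at chr11:99024160-99024359 (minus), Kif23 at chr9:61946770-61946969 (minus), Ccnb2 at chr9:70421525-70421724 (minus) and Ube2c at chr2:164769759-164769958 (plus).
Mcm3: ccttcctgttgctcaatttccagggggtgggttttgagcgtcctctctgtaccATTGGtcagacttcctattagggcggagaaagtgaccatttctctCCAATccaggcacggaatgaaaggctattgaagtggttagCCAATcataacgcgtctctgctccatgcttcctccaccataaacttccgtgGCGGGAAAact
Mcm6: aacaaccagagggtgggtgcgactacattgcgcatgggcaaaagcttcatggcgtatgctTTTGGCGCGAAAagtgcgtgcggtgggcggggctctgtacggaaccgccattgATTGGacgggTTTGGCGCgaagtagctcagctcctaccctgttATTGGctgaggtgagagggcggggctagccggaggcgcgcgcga
Top2a: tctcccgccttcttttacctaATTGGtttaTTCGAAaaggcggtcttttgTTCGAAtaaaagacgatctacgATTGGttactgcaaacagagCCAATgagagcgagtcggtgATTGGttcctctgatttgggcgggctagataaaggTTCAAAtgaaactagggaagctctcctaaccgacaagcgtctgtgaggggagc
Kif23: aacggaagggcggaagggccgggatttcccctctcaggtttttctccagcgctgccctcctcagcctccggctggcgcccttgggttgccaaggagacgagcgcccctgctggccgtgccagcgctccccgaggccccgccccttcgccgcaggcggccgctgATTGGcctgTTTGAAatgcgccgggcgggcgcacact
Ccnb2: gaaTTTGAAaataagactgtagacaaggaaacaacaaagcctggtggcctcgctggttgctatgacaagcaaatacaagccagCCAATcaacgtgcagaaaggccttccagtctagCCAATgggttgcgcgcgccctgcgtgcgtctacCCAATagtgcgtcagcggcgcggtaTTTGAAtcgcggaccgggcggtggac
Ube2c: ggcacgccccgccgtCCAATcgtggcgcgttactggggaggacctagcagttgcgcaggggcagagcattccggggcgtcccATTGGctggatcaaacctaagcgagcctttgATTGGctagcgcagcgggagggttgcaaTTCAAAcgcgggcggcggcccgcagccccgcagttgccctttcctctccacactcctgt
In this window Mcm6 has 3 E2F words and no CHR word, Top2a has 3 CHR words and 4 CCAAT boxes, and Kif23 has its CHR word 3 bases after the start and its CCAAT box 7 bases before it. These matches describe letters and are not measurements of factor binding.

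After limits on depth and mitochondrial share and removal of called doublets, 2214 and 3110 cells from the TAK-981 tumours and 4408 and 4130 from the vehicle tumours remained. Median UMIs (counted transcript molecules) per cell were 5024.5 and 12831 in TAK-981 cells, against 2269 and 4152.5 in vehicle cells, and the median mitochondrial share was 6.90% and 5.11% against 2.93% and 2.71%. No pair of libraries shared more than 6 cell barcodes. Cells were clustered without the cycle genes and named by markers of each type, so that the 56 genes did not define the classes. Epithelial-like cells numbered 902 and 1988 in the TAK-981 tumours and 1108 and 2405 in the vehicle tumours, and all 10 epithelial markers were detected in 3 of the 4 tumours, 7 of 10 in vehicle tumour 2. The epithelial-like clusters were not shared evenly: cluster 0 was mostly vehicle tumour 2 (1560 cells), cluster 2 mostly TAK-981 tumour 2 (922 cells), cluster 6 mostly vehicle tumour 1 (581 cells), cluster 7 mostly the TAK-981 tumours (361 and 245 cells), and cluster 3 was the only one with 200 or more cells from every tumour. RNA of the cycle genes came mainly from these epithelial-like cells, which held 79.8% and 93.7% of all UMIs of the 56 genes in the TAK-981 tumours and 80.7% and 90.5% in the vehicle tumours, while making up 40.7% and 63.9%, and 25.1% and 58.2%, of the cells. In sums over a class, fewer cycling cells and fewer transcripts in each cycling cell cannot be told apart.

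Epithelial-like cells carried more cycle gene RNA than each of 4 other classes. Tested within tumours against macrophage-like cells, 41 of the 56 genes were higher at a Benjamini-Hochberg adjusted p of 0.05 (edgeR quasi-likelihood test with the tumour as a block), 15 of 25 S genes and 26 of 31 G2/M genes, and none was lower. The background is 36.1% of 12172 genes called higher and 32.9% called lower. The median log2 fold change was 0.83 for the S genes and 1.27 for the G2/M genes, beside 0.09 for all genes tested.

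The largest difference was in Rrm2, the regulated subunit of ribonucleotide reductase. Its normalised level in epithelial-like cells was 175 and 136 CPM (UMIs of the gene scaled to one common library total) in TAK-981 tumours 1 and 2 and 220 and 215 CPM in vehicle tumours 1 and 2, against 28.2, 21.0, 23.3 and 19.6 CPM in the macrophage-like cells of the same tumours. Every epithelial-like value lay far above every macrophage-like value (log2 fold change 2.99, SE 0.19, adjusted p = 3.79e-05). No difference was called in the same cells for its partner subunit Rrm1, with 37.0, 35.5, 59.0 and 34.9 CPM against 53.6, 31.6, 54.9 and 35.4 CPM (log2 fold change -0.07, SE 0.15, adjusted p = 0.694).

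Cks1b (log2 fold change 2.05), Ube2c (1.92) and Gins2 (1.91) followed Rrm2 in the comparison with macrophage-like cells. Among the helicase genes, Mcm7 (1.88), Mcm6 (1.26), Mcm2 (1.10) and Mcm5 (0.51) were called higher in epithelial-like cells, while Mcm3 (0.34) and Mcm4 (0.25) were not called. Mki67, the most used marker of proliferation, was not called, with 64.3, 72.9, 115 and 90.8 CPM in epithelial-like cells against 159, 80.6, 99.0 and 113 CPM in macrophage-like cells (log2 fold change -0.38, SE 0.25, adjusted p = 0.208). Aurkb, Kif2c, Dlgap5 and Nuf2 were the other G2/M genes not called.

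Against fibroblast-like cells 50 of 56 genes were higher (20 S and 30 G2/M, background 29.9%), with medians of 1.43 and 1.47 beside 0.12 for all genes tested. The 4 largest log2 fold changes were those of Rrm2 (2.82), Mcm3 (2.52), Mcm7 (2.40) and Kif20b (2.19), a mitotic kinesin. Against T or NK-like cells 36 were higher (11 S and 25 G2/M, background 29.5%), with medians of 0.71 and 1.37 beside 0.38 for all genes. The exonuclease Exo1 (3.82), the spindle kinase Aurka (2.62), the checkpoint kinase Bub1 (2.49) and Rrm2 (2.33) led there, and Mki67 again was not called (-0.29, SE 0.27, adjusted p = 0.395). Exo1 had few counts, with 221 and 589 UMIs in all kept cells of TAK-981 tumours and 126 and 106 in those of vehicle tumours. The T or NK-like cells held 97008 to 526102 UMIs of all genes in a tumour. The value of Exo1 thus lies near the floor of that class, and no lower bound was set on it. Epithelial-like cells differed from T or NK-like cells in fewer S genes than G2/M genes, and the difference between the 2 counts was not tested.

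Against neutrophil-like cells, 44 genes were higher (17 S and 27 G2/M, background 31.2%) and 1 was lower (background 20%), with medians of 2.07 and 2.74 beside 0.68 for all genes; with 3 genes that had no neutrophil-like UMI set to their lower bounds, the medians were 2.07 and 2.68. Cks2, a small Cdk partner, was the lower one, at 69.8, 78.8, 151 and 81.6 CPM in epithelial-like cells against 117, 139, 320 and 209 CPM in neutrophil-like cells (log2 fold change -1.02, SE 0.35, adjusted p = 0.00877). Hmgb2, a chromatin protein that is also made outside dividing cells, was not called (-0.09, SE 0.39, adjusted p = 0.854). Bub1 (4.81) and the spindle assembly factor Tpx2 (4.29) had the largest fold changes among genes with a count in both classes, but no lower bound was set on these 2. Bub1 had 912 and 2110 UMIs in all kept cells of TAK-981 tumours and 496 and 388 in those of vehicle tumours. Fold changes of this size thus rest on very few neutrophil-like UMIs, and their rank is not read as a result. Ung, Kif2c and E2f8 had no UMI among the 1209109 UMIs of the neutrophil-like cells, so with a floor of 3 counts over the group they were at least 4.41-fold, 4.20-fold and 3.43-fold higher in epithelial-like cells. When only barcodes with 1000 or more UMIs were kept, 1 gene was called higher against the neutrophil-like class, which then held 493166 UMIs in TAK-981 tumour 1 where it had held 78398.

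**Figure D1:**
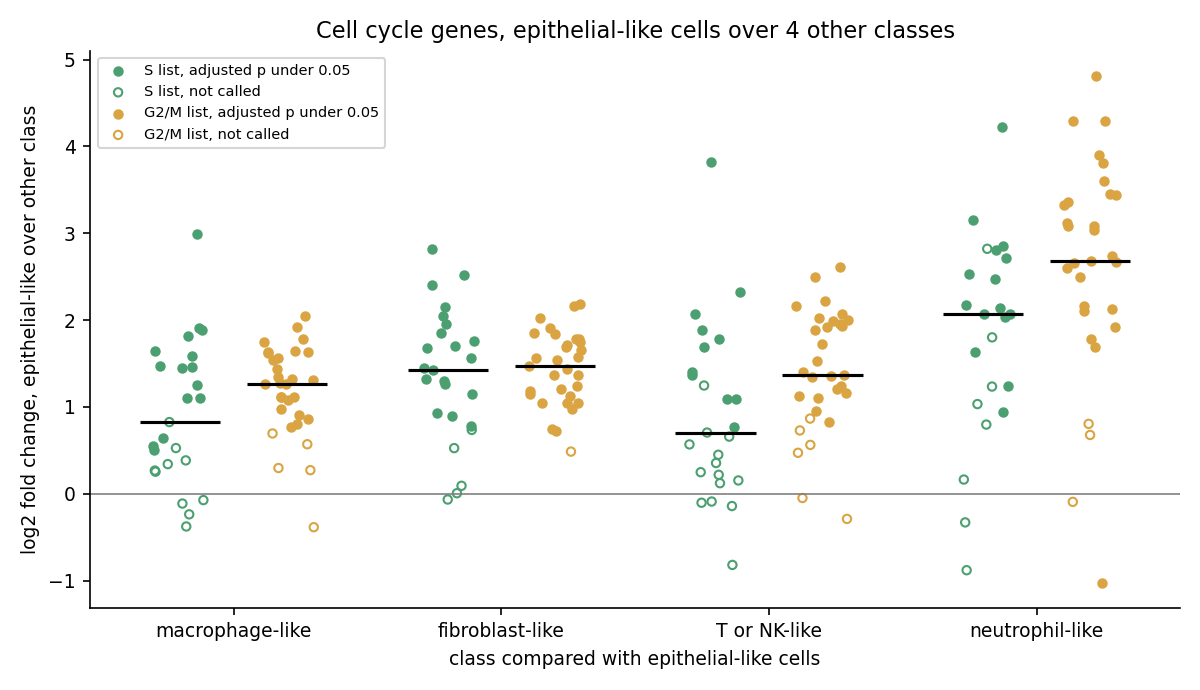
Log2 fold change of each cycle gene in epithelial-like cells over 4 other classes (points, S and G2/M genes in separate colours; bars mark medians, with the 3 genes without a neutrophil-like UMI at their lower bounds and not drawn as points). The medians of the G2/M genes, 1.27 to 2.68, lie above those of the S genes, 0.71 to 2.07, in each class, narrowly so against fibroblast-like cells (1.47 and 1.43).

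In epithelial-like cells, no gene of either list passed the test of TAK-981 against vehicle, where 0.525% of 12751 genes were called higher and 1.68% lower (edgeR quasi-likelihood test, Benjamini-Hochberg adjustment at 0.05). At an unadjusted p of 0.05, 6 S genes were higher and 1 lower, and 1 G2/M gene was higher and 4 lower, beside 10.4% of all genes higher and 10.5% lower. The 2 lists had medians on opposite sides of 0. Of the 25 S genes, 18 had a fold change above 0 and the median log2 fold change was 0.40. Of the 31 G2/M genes, 19 were below 0 and the median was -0.18, beside 0.01 for all genes tested.

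Among the S genes the largest value was that of Fen1, the flap endonuclease that trims Okazaki fragments. It had 32.1 and 24.4 CPM in TAK-981 tumours, against 14.2 and 10.8 CPM in vehicle tumours. The groups did not overlap (log2 fold change 1.18, SE 0.27, adjusted p = 0.0808). Chaf1b, a subunit of the histone chaperone CAF-1, had 48.2 and 30.6 CPM in TAK-981 tumours against 21.3 and 17.9 CPM in vehicle tumours (log2 fold change 1.00, SE 0.29, adjusted p = 0.124). Both were named after their values were seen.

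The helicase genes showed how far the tumours spread. Mcm3 had 114 and 86.6 CPM in TAK-981 tumours, against 70.7 and 43.0 CPM in vehicle tumours, and Mcm4 had 68.3 and 58.2 CPM against 47.6 and 26.3 CPM. In both genes each TAK-981 tumour lay above each vehicle tumour, but vehicle tumour 2 was far below vehicle tumour 1 (log2 fold changes 0.82, SE 0.30, and 0.78, SE 0.32; adjusted p = 0.201 and 0.236). The other 4 helicase genes overlapped between groups, with log2 fold changes of 0.44 for Mcm2, 0.40 for Mcm5, 0.12 for Mcm6 and -0.02 for Mcm7. Slbp, which binds the ends of replication-dependent histone mRNAs, had 111 and 108 CPM in TAK-981 tumours against 84.0 and 57.0 CPM in vehicle tumours (0.64, SE 0.25, adjusted p = 0.224).

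Pcna, the clamp that holds the polymerase on DNA, had 213 and 179 CPM in TAK-981 tumours against 204 and 92.5 CPM in vehicle tumours, and Tyms, the thymidylate synthase, had 120 and 89.2 CPM against 99.3 and 57.6 CPM. In each, vehicle tumour 1 lay among the TAK-981 tumours. The GINS subunit Gins2 had 85.5 and 56.0 CPM in TAK-981 tumours against 51.5 and 53.3 CPM in vehicle tumours (0.43, SE 0.26, adjusted p = 0.401).

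Rrm2 was 1 of the 7 S genes with a fold change below 0. It had 167 and 132 CPM in TAK-981 tumours against 231 and 226 CPM in vehicle tumours, with no overlap (log2 fold change -0.61, SE 0.22, adjusted p = 0.188). Rrm1 had 35.2 and 34.7 CPM against 61.8 and 36.6 CPM (-0.49, SE 0.29, adjusted p = 0.391). In all, 10 S genes had both TAK-981 tumours above both vehicle tumours and 3 had both below; over all genes tested these shares are 27% and 26.9%.

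Among the G2/M genes, Top2a had 147 and 165 CPM in TAK-981 tumours against 374 and 208 CPM in vehicle tumours (log2 fold change -0.90, SE 0.31, adjusted p = 0.178). Mki67 had 61.1 and 71.2 CPM in TAK-981 tumours against 121 and 95.4 CPM in vehicle tumours (-0.71, SE 0.23, adjusted p = 0.153). Both genes were below in each TAK-981 tumour, and in both the highest value was that of vehicle tumour 1. The spindle protein Nusap1 (-1.04, SE 0.29, adjusted p = 0.121) and the midbody motor Kif23 (-0.84, SE 0.23, adjusted p = 0.115), named after their values were seen, had fold changes among the lowest of the list and did not pass the test.

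Regulators of mitotic entry and exit had values on both sides of 0. Cdk1 had 100 and 77.8 CPM in TAK-981 tumours against 88.6 and 53.3 CPM in vehicle tumours, and Ube2c had 295 and 230 CPM against 265 and 189 CPM. Ccnb1 differed by 0.03 on the log2 scale (SE 0.25), while Ccnb2 had 55.6 and 49.5 CPM in TAK-981 tumours against 63.6 and 76.0 CPM in vehicle tumours (-0.41, SE 0.21, adjusted p = 0.333). The paralogues Cks1b (0.21, SE 0.29) and Cks2 (-0.76, SE 0.33) lay on opposite sides of 0, as did the centromere histone Cenpa (0.10) against the kinetochore proteins Cenpe (-0.22) and Cenpf (-0.27), and neither difference was tested. The Aurora kinases had similar values, 0.32 for Aurka and 0.33 for Aurkb.

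Tubb4b, a tubulin of the spindle and of other microtubules, had 422 and 326 CPM in TAK-981 tumours against 219 and 273 CPM in vehicle tumours (0.60, SE 0.24, adjusted p = 0.232). Hmgb2 had 608 and 426 CPM against 896 and 593 CPM, and Birc5, the survivin subunit of the chromosomal passenger complex, had 202 and 160 CPM against 295 and 153 CPM. In both of these the groups overlapped. In all, 2 G2/M genes had both TAK-981 tumours above both vehicle tumours and 12 had both below (background 27% and 26.9%).

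**Figure D2:**
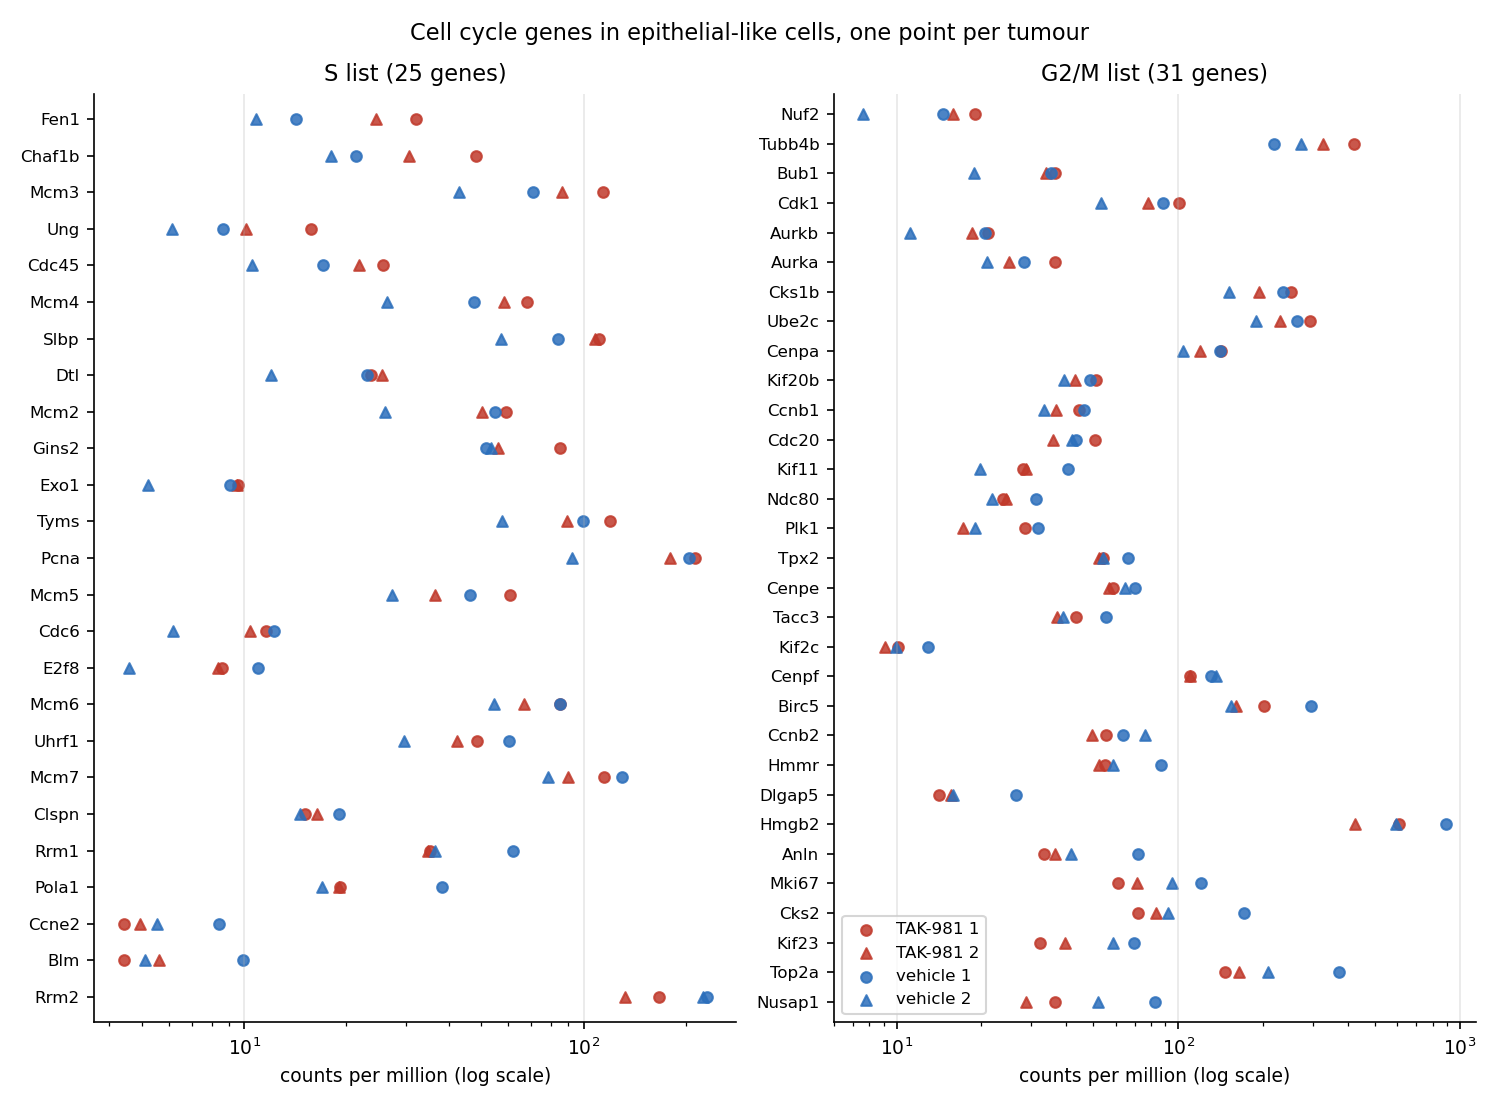
Level of each cycle gene in epithelial-like cells of each tumour (CPM, log axis; S genes in the left panel, G2/M genes in the right; colours mark TAK-981 and vehicle tumours). Fen1, Chaf1b and Mcm3 have both TAK-981 tumours above both vehicle tumours, Rrm2, Top2a and Mki67 have both below, and vehicle tumour 2 is the lowest for many S genes.

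These medians depended on single tumours. Without vehicle tumour 2 the S median was -0.01 and the G2/M median -0.33; without vehicle tumour 1 they were 0.84 and 0.03. Without TAK-981 tumour 1 the medians were 0.17 and -0.28, and without TAK-981 tumour 2 they were 0.40 and -0.18. The lists kept their order, S above G2/M, each time. DESeq2 called Fen1 and Chaf1b higher and Nusap1 and Kif23 lower (adjusted p = 0.00639, 0.0314, 0.0194 and 0.0222), where it called 4.45% of all genes higher and 5.62% lower. Macrophage markers in these epithelial-like cells summed to 1034 and 241 CPM (from here on, for sums over lists, scaled by the plain UMI total) in TAK-981 tumours against 163 and 109 in vehicle tumours with no marker of 12 at 0, and acinar markers to 183 and 82.9 against 22.3 and 5.37; their part in the result was not tested.

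The balance of S to G2/M RNA in epithelial-like cells was higher in both TAK-981 tumours. The UMIs of the S list over those of the G2/M list came to 0.477 and 0.464 in TAK-981 tumours, against 0.365 and 0.335 in vehicle tumours, or 0.471 ± 0.009 against 0.350 ± 0.021 (mean ± SD, n = 2 each). The groups did not overlap, and the difference of 0.120 was larger than the gap between tumours of 1 group. As a share of the UMIs of both lists, S genes made up 32.3% (95% Clopper-Pearson interval 32.0 to 32.6) and 31.7% (31.5 to 31.9) in TAK-981 tumours against 26.8% (26.4 to 27.1) and 25.1% (24.8 to 25.4) in vehicle tumours; these intervals cover counting error only.

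Both parts of the ratio varied between tumours. S genes stood at 1836 and 1424 CPM in TAK-981 tumours against 1190 and 765 in vehicle tumours, with no overlap. G2/M genes stood at 3850 and 3068 CPM in TAK-981 tumours against 3258 and 2281 in vehicle tumours, with overlap. The order of the tumours was the same for both lists except that vehicle tumour 1 stood above TAK-981 tumour 2 in G2/M genes. A few genes weigh heavily in these sums: Pcna, Rrm2 and Slbp gave 14.5%, 12.2% and 8.02% of S UMIs, and Hmgb2, Tubb4b and Ube2c gave 19.5%, 10.98% and 7.97% of G2/M UMIs. Without these 6 genes the ratio was 0.555 and 0.486 in TAK-981 tumours against 0.359 and 0.323 in vehicle tumours, a difference of 0.179.

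Within single epithelial-like clusters the balance differed less evenly. In cluster 3, the one spread over all tumours, the ratio was 0.535 and 0.526 in TAK-981 tumours against 0.521 and 0.469 in vehicle tumours. In cluster 2 it was 0.525 and 0.457 against 0.422 and 0.349, where the vehicle tumours had only 24 and 20 cells. In cluster 7 it was 0.441 and 0.530 in TAK-981 tumours against 0.356 in the 32 cells of vehicle tumour 1. In cluster 6 it was 0.354 in TAK-981 tumour 2, below the 0.372 and 0.381 of the vehicle tumours. In cluster 9 it was 0.385 in TAK-981 tumour 2, between the 0.472 and 0.383 of the vehicle tumours, and in cluster 0 it was 0.440 in the 20 cells of TAK-981 tumour 1 against 0.244 and 0.325 in the vehicle tumours. Of the 6 clusters with 20 or more cells of both groups, the ratio was thus higher in TAK-981 tumours in 4. It was lower in 1 and overlapping in 1. In cluster 3 the gap was smaller than over all epithelial-like cells. Its cells were shallow, with median UMIs of 915 and 5888 in TAK-981 tumours and 2149.5 and 2343 in vehicle tumours. Over all epithelial-like cells the medians ran from 8671 to 20219.5.

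**Figure D3:**
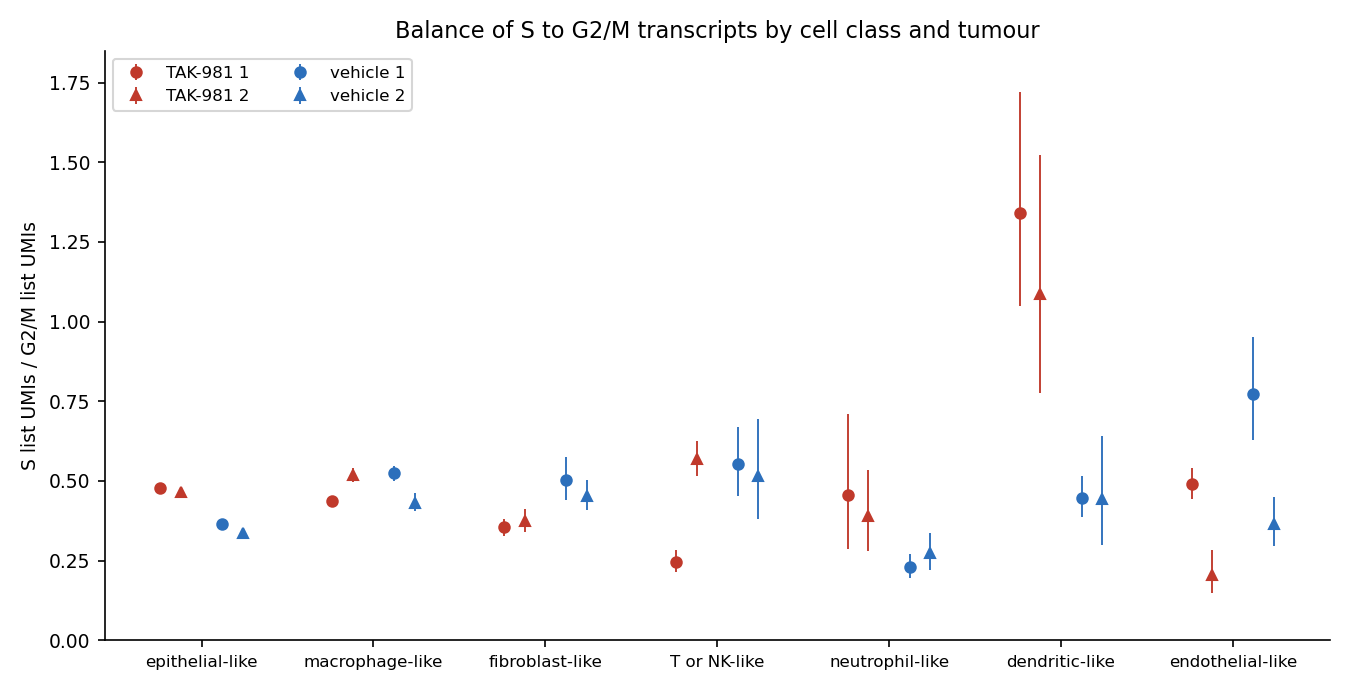
UMIs of the S list over UMIs of the G2/M list in each cell class (TAK-981 tumours to the left of vehicle tumours in each class; one point per tumour, with 95% intervals for counting error). In epithelial-like cells the TAK-981 tumours, at 0.477 and 0.464, stand above the vehicle tumours, at 0.365 and 0.335; in macrophage-like cells the groups overlap.

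Over all macrophage-like cells the groups overlapped, with a ratio of 0.437 and 0.518 in TAK-981 tumours against 0.524 and 0.432 in vehicle tumours. Of the 5 macrophage-like clusters with enough cells of both groups, the ratio was higher in TAK-981 tumours in 3 (clusters 1, 10 and 11). It was lower in 1 and overlapping in 1. Cluster 10 had enough cells in only 1 tumour of each group, so no overlap could arise there, and cluster 11 in only 1 vehicle tumour. Cluster 10 was also shallow, with median UMIs of 761 in TAK-981 tumour 1 and 852 in vehicle tumour 1. In cluster 1 the ratio was 0.708 and 0.603 in TAK-981 tumours against 0.447 and 0.425 in vehicle tumours. In fibroblast-like cells it was 0.354 and 0.374 against 0.503 and 0.453, lower in both TAK-981 tumours. In T or NK-like cells it was 0.247 and 0.568 against 0.552 and 0.515, and TAK-981 tumour 1 stood apart. In neutrophil-like cells, which held few cycle gene UMIs (96 to 978 in a tumour), it was 0.455 and 0.389 against 0.230 and 0.272. In dendritic-like cells it was 1.34 and 1.09 against 0.447 and 0.442, resting on 274 and 146 UMIs in the TAK-981 tumours, and in endothelial-like cells it was 0.489 and 0.205 against 0.773 and 0.366.

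At the level of single cells, each cell was thinned to 1000 UMIs and counted as positive for a list with 2 or more UMIs of it. In epithelial-like cells the share positive for S genes was 36.9% and 28.5% in TAK-981 tumours against 26.1% and 16.2% in vehicle tumours, with no overlap. The share positive for G2/M genes was 44.2% and 38.7% against 46.8% and 31.6%, with overlap. Cells positive for G2/M genes but not S genes made up 15.7% and 17.5% in TAK-981 tumours against 26.4% and 19.4% in vehicle tumours. Cells positive for S genes but not G2/M genes made up 8.47% and 7.33% against 5.72% and 4.03%, and cells positive for both 28.5% and 21.2% against 20.4% and 12.2%.

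Cells with neither list made up 47.4% and 54.0% in TAK-981 tumours against 47.5% and 64.4% in vehicle tumours, so about the same share was negative in TAK-981 tumour 1 and vehicle tumour 1. Thinning left out 182 and 78 epithelial-like cells of the TAK-981 tumours and 112 and 221 of the vehicle tumours. Neutrophil-like cells, which have left the cycle when mature, were positive for S genes in 5.26% and 2.44% of cells in TAK-981 tumours against 3.70% and 13.5% in vehicle tumours, and for G2/M genes in 13.2% and 17.1% against 34.6% and 48.1%. Their median depth was 1615.5 and 1438.5 UMIs in TAK-981 tumours and 666 and 622 UMIs in vehicle tumours, against 8671 to 20219.5 in epithelial-like cells, and 678 of 759 and 406 of 458 vehicle cells were too shallow to count. At this depth the G2/M share of vehicle epithelial-like cells was not set apart from that of vehicle neutrophil-like cells. Before thinning, vehicle neutrophil-like cells had 795 and 415 G2/M UMIs. Of these, Hmgb2 gave 458 and 234 and Cks2 gave 139 and 66, and the part of these 2 genes in the share was not tested. Thinned to 500 UMIs, which keeps every cell, epithelial-like cells were positive for G2/M genes in 32.5% and 27.1% in TAK-981 tumours against 30.3% and 22.4% in vehicle tumours, and neutrophil-like cells in 13.6% and 5.77% against 11.7% and 13.3%. For S genes the shares at 500 UMIs were 19.2% and 13.7% against 11.5% and 7.73% in epithelial-like cells, and 2.27% and 0.962% against 1.32% and 1.97% in neutrophil-like cells. At 500 UMIs both lists were thus found in more epithelial-like than neutrophil-like cells in each tumour.

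**Figure D4:**
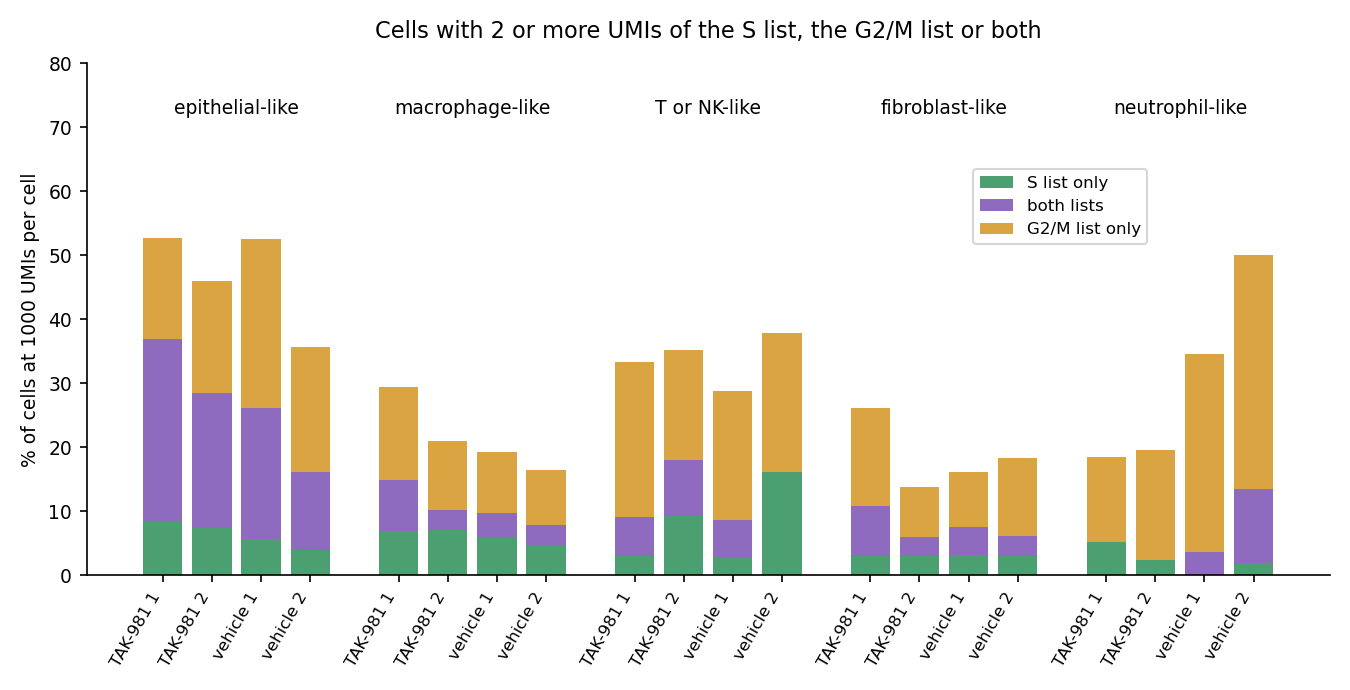
Share of cells, at 1000 UMIs per cell, with 2 or more UMIs of the S list only, of both lists or of the G2/M list only, by class and tumour (stacked bars, TAK-981 tumours left of vehicle tumours). In epithelial-like cells the G2/M-only part is 15.7% and 17.5% in TAK-981 tumours against 26.4% and 19.4% in vehicle tumours.

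In macrophage-like cells most fold changes of both lists were above 0. None of the 56 genes passed the test, and neither did any other of the 10677 genes (0% called; 601 were higher and 796 lower at an unadjusted p of 0.05, and DESeq2 called 57 and 210). Of the G2/M genes, 28 of 31 had a fold change above 0, and of the S genes 19 of 25, with a median of 0.32 for each list beside 0.01 for all genes. Ube2c had 121 and 64.7 CPM in TAK-981 tumours against 43.4 and 45.9 CPM in vehicle tumours (log2 fold change 1.05, SE 0.31, adjusted p = 0.229), and Cenpa had 97.9 and 66.5 CPM against 47.5 and 37.0 CPM (0.95, SE 0.27, adjusted p = 0.202). In both genes the groups did not overlap, and TAK-981 tumour 1 was the highest. The largest cluster of the class differed between the tumours: cluster 10 had 310 cells of TAK-981 tumour 1, cluster 8 had 192 of TAK-981 tumour 2, cluster 5 had 694 of vehicle tumour 1 and cluster 1 had 638 of vehicle tumour 2. Within clusters the G2/M genes did not all go one way. In cluster 1 they stood at 495 and 525 CPM in TAK-981 tumours against 1279 and 1031 CPM in vehicle tumours, lower in both TAK-981 tumours, whereas in cluster 5 (2763 and 1505 against 1218 and 2278 CPM) and cluster 8 (1997 and 1583 against 1778 and 532 CPM) the groups overlapped. In cluster 10 they stood at 2119 CPM in TAK-981 tumour 1 against 1302 CPM in vehicle tumour 1. In cluster 11 they stood at 608 and 561 CPM in TAK-981 tumours against 390 CPM in vehicle tumour 1. In clusters 10 and 11 the G2/M genes were thus higher in TAK-981 tumours. The part of this mix of clusters in the result was not tested.

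Cdk1 (0.93), Birc5 (0.85), Tpx2 (0.85) and Cks1b (0.83) had the next values, and 9 G2/M and 7 S genes had both TAK-981 tumours above both vehicle tumours (background 23.2%). This rested on TAK-981 tumour 1: without it the medians were -0.10 for S and -0.18 for G2/M genes. Cells positive for G2/M genes made up 22.5% and 13.9% in TAK-981 tumours against 13.3% and 11.6% in vehicle tumours, and for S genes 15.0% and 10.3% against 9.80% and 7.89%. In these macrophage-like cells acinar markers summed to 557 and 241 CPM in TAK-981 tumours against 42.9 and 27.7 in vehicle tumours, and epithelial markers to 111 and 147 against 75.2 and 142; their part in the result was not tested.

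**Figure D5:**
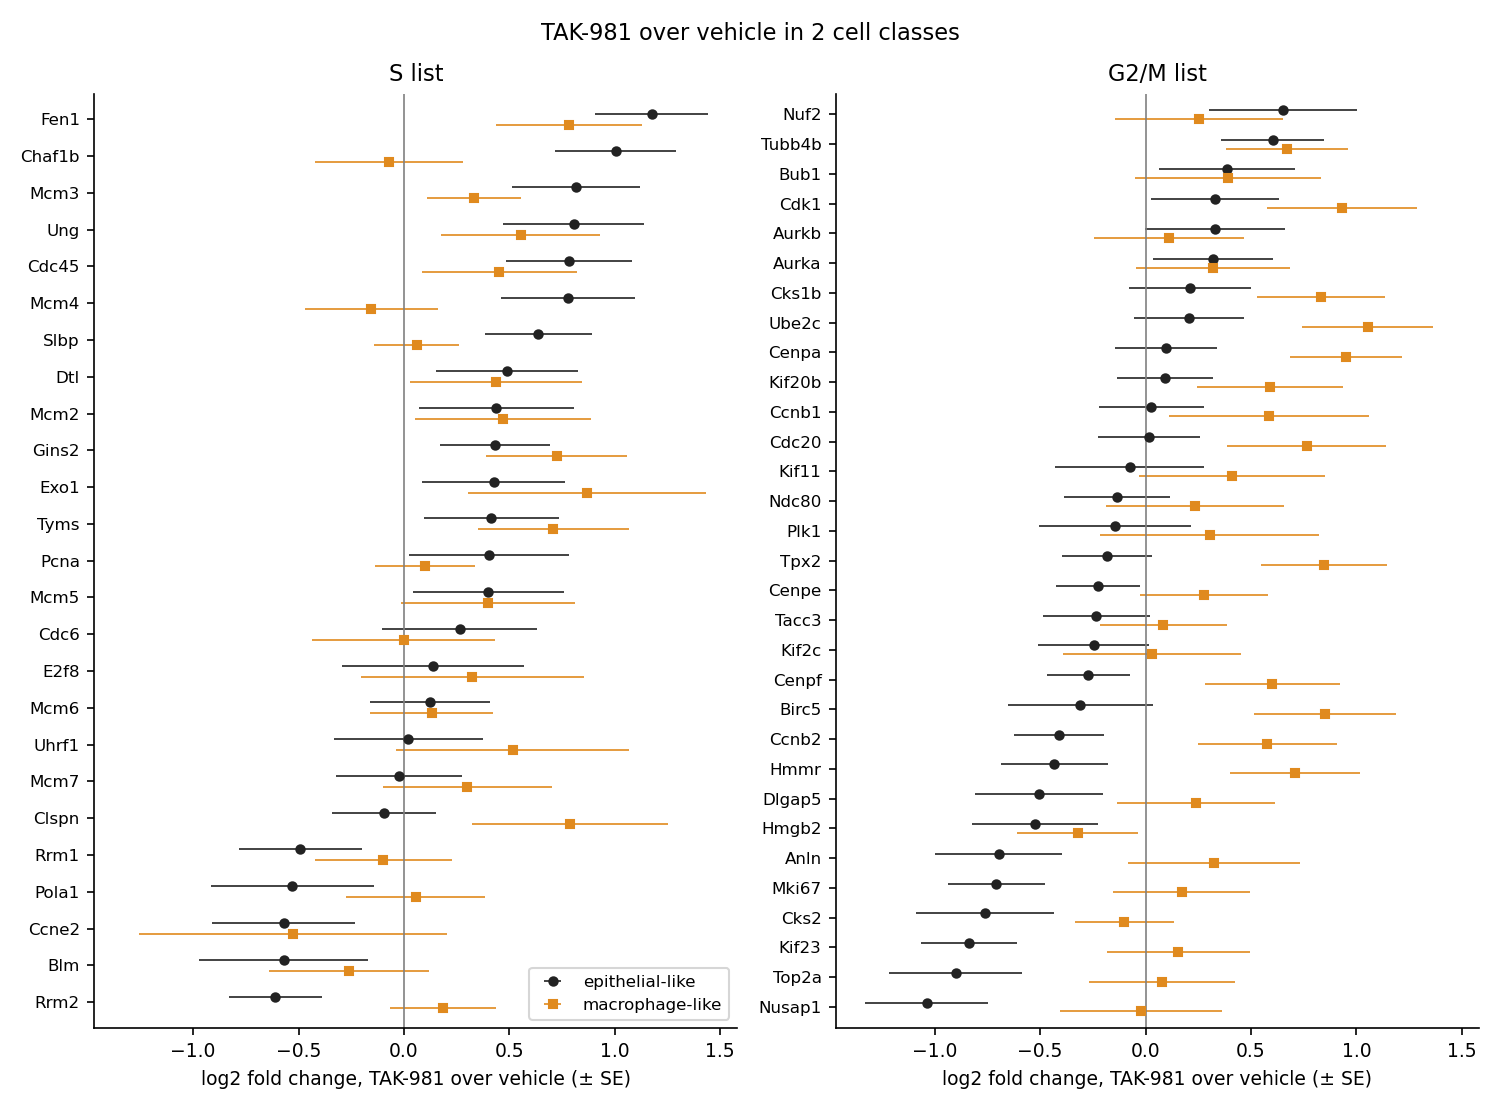
Log2 fold change of TAK-981 over vehicle, with a standard error worked back from the F statistic, for each cycle gene in epithelial-like and in macrophage-like cells. S genes lie mostly above 0 in both classes (medians 0.40 and 0.32), while G2/M genes lie mostly below 0 in epithelial-like cells (median -0.18) and mostly above 0 in macrophage-like cells (median 0.32).

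The difference between the effects in these 2 classes was tested as an interaction. No gene of either list passed it, nor did any of the 13236 genes (0% called; 1121 were higher and 395 lower at an unadjusted p of 0.05, and DESeq2 called 86 and 23). The median difference, epithelial-like minus macrophage-like, was 0.13 for S genes and -0.44 for G2/M genes, beside 0.11 for all genes. A negative difference means a lower TAK-981 effect in epithelial-like than in macrophage-like cells. The count of members with such a call changed without TAK-981 tumour 2. That fit leaves a single TAK-981 tumour, so its calls are not read as a result.

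The smaller classes gave single calls. Endothelial-like and dendritic-like cells had fewer than 30 cells in a tumour and were tested at a limit lowered to 15. In endothelial-like cells Cenpa, the histone that marks centromeres, rose to 149 and 153 CPM in TAK-981 tumours, against 46.6 and 17.1 CPM in vehicle tumours (log2 fold change 2.29, SE 0.50, adjusted p = 0.0463). It was 1 of 22 genes tested, where 0.747% of all genes were called higher. These values rest on 66 and 19 UMIs against 10 and 5 UMIs, and TAK-981 tumour 2 gave 16 endothelial-like cells. The 14 G2/M genes of 31 with enough counts to be tested were above 0, with a median of 1.35 beside 0.01 for all genes, and 11 did not overlap (background 22.7%). A gene can pass the filter on low counts through the group where it is high, so these counts are a description only. Cks1b had 169 and 72.5 CPM in TAK-981 tumours against 18.6 and 37.7 CPM in vehicle tumours (2.15, SE 0.54, adjusted p = 0.0693). Endothelial-like cells positive for G2/M genes made up 31.3% and 33.3% in TAK-981 tumours, 10 and 5 cells, against 7.41% and 7.32% in vehicle tumours, 4 and 6 cells. Epithelial markers in these cells summed to 1932 and 152 CPM in TAK-981 tumours against 31.0 and 213 in vehicle tumours, and macrophage markers to 1619 and 991 against 105 and 296; their part in the result was not tested. The call was lost without vehicle tumour 2 (adjusted p = 0.295) and with DESeq2 (0.0755).

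In dendritic-like cells Top2a fell to 9.04 and 15.2 CPM in TAK-981 tumours, against 75.9 and 126 CPM in vehicle tumours (log2 fold change -2.82, SE 0.59, adjusted p = 0.031). It was 1 of 8 genes tested, where 3.46% of genes were called lower and 0.489% higher. The values rest on 2 and 3 UMIs in the TAK-981 tumours against 39 and 9 UMIs in the vehicle tumours. The class held 31 and 27 cells in TAK-981 tumours against 211 and 29 in vehicle tumours. Mki67 had 45.2 and 10.1 CPM against 66.2 and 265 CPM (-2.11, SE 0.82, adjusted p = 0.274), and Hmgb2 had 203 and 126 CPM against 512 and 349 CPM (-1.42, SE 0.37, adjusted p = 0.0808). The call of Top2a was lost without TAK-981 tumour 1 (adjusted p = 0.0532) and without vehicle tumour 2 (0.0958), and without vehicle tumour 1 the gene had too few counts to be tested. Dendritic markers in these cells summed to 1653 and 3120 CPM in TAK-981 tumours against 2715 and 1524 CPM in vehicle tumours. Macrophage markers summed to 3098 and 1870 CPM against 981 and 822 CPM, with 0 and 0 of 12 at 0 against 1 and 3. In both vehicle tumours and TAK-981 tumour 2 the dendritic sum was the larger, but not in TAK-981 tumour 1, where the name of the class is less sure. Neutrophil markers summed to 506 and 2495 against 388 and 869, mast markers to 21.6 and 925 against 435 and 59.5, and acinar markers to 389 and 182 against 12.4 and 0. The part of these other markers in the result was not tested.

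In T or NK-like cells 22 genes could be tested and none passed, where 0.0976% of 4098 genes were called higher and 0.293% lower. The 12 G2/M genes of 31 that could be tested were above 0, with a median of 1.08 beside -0.02 for all genes, and 9 did not overlap (background 22.9%), while the 10 S genes had a median of 0.11. Here too genes could pass the filter through the TAK-981 tumours alone, as Ccnb2 did with 26 and 21 UMIs in TAK-981 tumours against 1 and 0 UMIs in vehicle tumours, so these counts are a description only. Cks1b had 166 and 88.4 CPM in TAK-981 tumours against 17.7 and 24.1 CPM in vehicle tumours (log2 fold change 2.62, SE 0.59, adjusted p = 0.0732), from 54 and 45 UMIs against 3 and 2 UMIs. Cenpa had 230 and 157 CPM against 94.4 and 36.1 CPM (1.41, SE 0.45, adjusted p = 0.208), whereas Mki67 differed by 0.25 (SE 0.38) and Top2a by 0.52 (SE 0.35). Epithelial markers in these cells summed to 1457 and 336 CPM in TAK-981 tumours against 82.7 and 701 in vehicle tumours, and acinar markers to 1218 and 414 against 101 and 10.3, with 0 and 0 of 10 acinar markers at 0 in TAK-981 tumours against 2 and 9 in vehicle tumours; their part in the result was not tested. Cluster 16, led by Cd3g, Tnfrsf4 and Ctla4, held 57 of 68 and 89 of 145 cells of the class in TAK-981 tumours against 57 of 158 and 40 of 69 in vehicle tumours. In that cluster G2/M genes made up 4013 and 2576 CPM in TAK-981 tumours against 1753 and 1356 in vehicle tumours.

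In fibroblast-like cells none of 50 genes tested passed (background 0.19% higher and 0.537% lower); the median was -0.13 for 21 S genes and 0.40 for 29 G2/M genes, and Ube2c had the largest value (1.70, adjusted p = 0.292). Both TAK-981 tumours were above both vehicle tumours for 1 S and 7 G2/M genes there (background 19.9%). In neutrophil-like cells none of 6 genes passed (background 0.288% higher and 0.064% lower). One small neutrophil-like cluster of 22 cells, led by the granule genes Camp, Ngp and Ltf and drawn from vehicle tumour 1 but for 1 cell, had 3670 CPM of G2/M genes, against 721 to 1326 over all neutrophil-like cells of a tumour. In sums over all cells of a tumour none of the 56 passed, nor any of 14485 genes (0% called; 1011 higher and 1084 lower at an unadjusted p of 0.05, and DESeq2 called 283 and 497).

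Other cycle genes, outside the 2 lists, were tested in epithelial-like cells in the same fit. Of 25 further G2/M genes, 2 were called lower with TAK-981 and none higher, beside 1.68% of all genes called lower and 0.525% higher. In this list 21 were below 0 and the median was -0.28, beside 0.01 for all genes tested. Cenpw, a histone-fold protein of the inner kinetochore, fell to 16.8 and 19.4 CPM in TAK-981 tumours, against 119 and 86.2 CPM in vehicle tumours (log2 fold change -2.50, SE 0.26, adjusted p = 0.0197). The ubiquitin ligase G2e3 had 24.7 and 31.1 CPM against 83.7 and 64.6 CPM (-1.41, SE 0.25), with an adjusted p just under the threshold of 0.05. Of 21 further S genes none passed, 14 were above 0 and the median was 0.23. Of 28 cycle regulators tested none passed: cyclin Ccne1, which drives entry into S phase, had 15.1 and 10.2 CPM in TAK-981 tumours against 6.49 and 2.79 CPM in vehicle tumours (1.46, SE 0.45, adjusted p = 0.143), and the Cdk inhibitor Cdkn1a had 41.9 and 67.6 CPM against 40.8 and 55.2 CPM (0.19, SE 0.30).

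The fold changes of genes with and without a promoter word were set side by side within each list, with no test. In epithelial-like cells the 9 S genes with an E2F word had a median log2 fold change of 0.12 and the 12 without one 0.43, and the 21 G2/M genes with a CHR word had -0.13 and the 7 without one -0.23. Mcm6 (0.12) and Mcm3 (0.82), both with E2F words, and Top2a (-0.90) and Ube2c (0.21), both with CHR words, show the spread among the promoters printed above.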

How the data were processed

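The deposited data are UMI counts per gene and cell barcode, which the authors made with Cell Ranger 6.1.2 on the mm10 build, per the submitters' processing notes; they are raw counts with no normalisation. Limits of 500 UMIs and 250 genes (minimum) and a mitochondrial share of 20% (maximum) were set on barcodes, and doublets called by Scrublet (scanpy 1.11.5) were removed. Cells were clustered (2000 variable genes without cycle genes, 30 components, 15 neighbours, Leiden) and named from fixed marker lists. Counts were summed per tumour and class and tested with edgeR 4.0.16 (TMM, filterByExpr, quasi-likelihood F test) in R 4.3.3. The SE printed with a log2 fold change is its absolute value divided by the square root of the F statistic. It is an approximation and was not given by the fit. Benjamini-Hochberg adjustment was over all genes tested. Classes with fewer than 30 cells in a tumour were to be described and not tested. That limit was lowered to 15 to add dendritic-like and endothelial-like cells, whose tests are read with care. Comparisons of classes had the tumour as a block. DESeq2 1.42.0, an unfiltered fit, other cell limits, a fit that left out transcripts under 800 nt and fits without 1 tumour were alternatives. The tests were tried on simulated data.

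The members and lists were chosen with earlier results of these data known. Genes were named where they passed a test in a treatment comparison, where they were among the 10 S or 12 G2/M genes with the most counts in epithelial-like cells, as paralogues, or as 1 of the 4 largest fold changes between classes; others are said to be named after their values were seen. The labels put each tumour in a mouse of its own and give no pairing.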

Additional observations from a re-analysis of the deposited data

How the results depend on the processing

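The results that answer a comparison were counts of members called and differences between groups in ratios and shares. Under the alternatives 200 values were labelled as kept, 36 as moved and 6, all of them differences, as changed in sign. A count was kept where its total over both directions was equal or near, whichever genes were called. A count of 0 that stayed at 0 is included. A difference was kept where it held its sign and stayed within the spread between tumours. Of the values of single genes, 3984 kept their side of the threshold (a change of sign between values that were not called is counted here). Another 47 passed it where they had not, 12 lost it and none reversed. Without a filter on low counts, the members called for TAK-981 over vehicle came to 7 in epithelial-like, 5 in macrophage-like, 1 in fibroblast-like, 5 in T or NK-like and 2 in all cells, all from 0, and 4 in dendritic-like and 5 in endothelial-like cells, from 1; the interaction then had 1. No share of all genes called without the filter is set beside these counts, so they cannot be read against a background. DESeq2 called 4 members in epithelial-like cells and 2 in all cells. With 1000 or more UMIs 1 was called in neutrophil-like cells, and 1 in epithelial-like over neutrophil-like cells. The single call in dendritic-like cells became 0 with clusters made with the cycle genes, at least 1000 UMIs, at most 10% mitochondrial UMIs, no doublet removal or DESeq2, and that in endothelial-like cells became 0 without doublet removal, with DESeq2 or without short transcripts, and 2 with a length trend removed. The causes were not tested. No share of all genes called is set beside the counts with 1000 or more UMIs or without 1 tumour. Each fit without 1 tumour also leaves a single tumour in its group, so the counts that follow are not read as a result. In dendritic-like cells a similar count does not mean the same gene. The call of Top2a was lost without TAK-981 tumour 1 and without vehicle tumour 2. Leaving out 1 tumour at a time gave 0 to 1 calls in fibroblast-like and in T or NK-like cells, 1 to 2 in dendritic-like, 1 to 8 in endothelial-like cells and 0 to 10 for the interaction.

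The replicate numbers only name mice: deviations of tumours with the same number correlated by -0.0372 over 11271 genes in epithelial-like and by -0.128 over 9220 genes in macrophage-like cells. With the replicate block, 1 member was called in T or NK-like cells (Cks1b), and 0 in dendritic-like and 0 in endothelial-like cells. The other counts of TAK-981 over vehicle stayed at 0. No share of all genes called with the block is set beside these counts. The S to G2/M ratio in epithelial-like cells differed by 0.179 without the 3 most counted genes of each list, against 0.120, and by 0.105 to 0.135 without 1 tumour. In macrophage-like cells the difference of -0.0008 became 0.0046 with at least 1000 UMIs, 0.0022 with clusters made with the cycle genes and between -0.0466 and 0.0451 without 1 tumour. The difference in the share of epithelial-like cells with G2/M UMIs, 2.24 percentage points, ran from -5.36 to 9.84 without 1 tumour (-0.499 without TAK-981 tumour 1). Without thinning, the differences in macrophage-like cells were 26.2 points for G2/M and 26.5 for S genes, against 5.70 and 3.77. Depth limits the smaller classes, whose values rest on few UMIs.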
